A study of Homo sapiens with 6 samples.

Results

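The genes described here encode the NF-κB subunits (NFKB1, NFKB2, REL, RELA and RELB) and their inhibitors (NFKBIA, NFKBIB, NFKBIE, TNFAIP3 and BCL3). They were followed on every array probe set annotated to exactly 1 of these 10 genes, which gave 20 probe sets for 9 genes, out of 54613 non-control probe sets and 19775 named genes. BCL3 has no value here, because its 2 probe sets are annotated to a second gene as well. RNA came from SKOV3.ip1, a human ovarian cancer cell line, stably transfected with a vector for 1 of 2 forms of PEA-15, a small adaptor protein that binds ERK and FADD. The S116A line carried a form with a serine changed to alanine, which cannot be phosphorylated at that position. The S116D line carried a form with aspartic acid, which mimics the phosphate. The labels differ on whether a second serine is replaced in S116D. Each line was read on 3 Affymetrix HG-U133 Plus arrays, called S116A 1 to 3 and S116D 1 to 3. The labels name neither the promoter of the vector nor whether a line is 1 clone or a pool, and they do not say that the arrays came from separate cultures, so p-values measure the spread between arrays, which may be technical. No untransfected array was analysed here, so every difference is between the 2 lines, S116D minus S116A, on the log2 scale.

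NF-κB is a family of dimeric transcription factors built from these subunits. In resting cells the dimers are held in the cytoplasm by IκB proteins, among them IκBα (NFKBIA), IκBβ (NFKBIB) and IκBε (NFKBIE). Receptor signals activate IκB kinase, the IκBs are degraded and the dimers enter the nucleus. NFKB1 and NFKB2 encode precursors, p105 and p100, that are themselves inhibitory until processed to p50 and p52. The pathway restrains itself by inducing IκBα and A20 (TNFAIP3), a ubiquitin-editing enzyme, and in ovarian carcinoma cells it is known for driving cytokine and survival genes. Transcript levels do not report the location or activity of the proteins.

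Because the family is known to act on its own genes, the promoters of its members are shown with their matches to κB-type letters. RefSeq promoters (GRCh38.p14), 250 bases before to 50 after a start, were found for 8 of the 10 members. The search, on both strands, was for GGG, any 2 bases and TTTCC, or GGG, any 2 bases and TTCCC. The patterns can overlap, and the letters were chosen after the members' promoters had been read. At least 1 promoter held a match in 7 of 8 members, against 4.71% of 27305 genes and 3.88% of 35116 promoters. RELA was the member without a match in these windows. Since the letters were fitted to the members, that contrast describes the sequences and supports nothing further. The matches, in capitals, are printed 5′ to 3′ on the strand of the gene for the members whose array values are followed below.
NFKB1 (chr4:102501285-102501344, plus strand): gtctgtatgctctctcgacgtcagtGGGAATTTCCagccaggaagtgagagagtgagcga
NFKB2 (chr10:102394461-102394490, plus strand): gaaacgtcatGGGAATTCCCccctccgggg
REL (chr2:60881503-60881562, plus strand): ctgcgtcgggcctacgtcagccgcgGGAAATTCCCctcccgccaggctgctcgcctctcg
NFKBIA (chr14:35404796-35404855, minus strand): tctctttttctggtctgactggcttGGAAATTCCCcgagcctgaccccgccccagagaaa
NFKBIB (chr19:38899931-38899960, plus strand): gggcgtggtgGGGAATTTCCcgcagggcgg
TNFAIP3 (chr6:137867188-137867217, plus strand): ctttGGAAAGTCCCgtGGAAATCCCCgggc
The match began 49 bases before the start in NFKB1, 46 in REL, 81 in NFKBIA and 28 in NFKBIB, and the TNFAIP3 matches began 67 and 55 bases before it. NFKB2 held further matches near this and another of its starts. A match of letters is not evidence of binding in these cells.

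The arrays were closely scaled, with medians between 7.86 and 7.89, and correlated at r of 0.9951 to 0.9979 within a line and 0.9866 to 0.9902 between lines. The arrays were split by the sign of the second principal component, which held 20.3% of the variance. Such a split always gives 2 sets, and these match no label. One holds the first S116A and S116D arrays with S116A 2, and the other holds S116A 3 and the S116D arrays 2 and 3. Values within each set are given where they touch a result. Each rests on a single array of a line, S116D 1 in the first set and S116A 3 in the second. PEA15 was not called on either probe set (-0.06 and -0.19, limma adjusted p = 0.82 and 0.20), and whether these probes read the vector transcript is not known. Of 13 markers of the labelled cell type and of epithelium 10 lay above the median signal, with PAX8 at 12.77 ± 0.12 and 12.82 ± 0.06 (SD, n = 3, S116A and S116D) and EPCAM at 13.25 ± 0.39 and 12.34 ± 0.16. On the mean of 6 arrays CDH1, MSLN and MUC16 lay below that median (7.89), MUC16 at 6.72 ± 0.06 and 6.59 ± 0.04. In S116A alone the CDH1 arrays, at 8.12 to 9.46, lay above it. Above the median also lay 6 of 13 leukocyte, 7 of 12 fibroblast and mesothelial and 3 of 6 endothelial markers. A place above the median therefore does not by itself show that a gene is expressed or which cell type is present. Of the 13 markers of the labelled cell type and of epithelium, 0 rose and 6 fell in S116D (CDH1, EPCAM, KRT7, KRT8, KRT18 and KRT19). Of all genes, read like the markers on the brightest probe set, 6.13% rose and 4.82% fell. CDH1 and KRT19 were each called on 1 of 2 probe sets and KRT7 on 2 of 4. CDH1, the gene for E-cadherin, fell from 8.87 ± 0.68 to 6.06 ± 0.18, and the part of this shift in the results on NF-κB genes was not tested. Of 13 leukocyte markers 0 were called by limma and 0 had an unadjusted p under 0.05, with no share of all genes counted for the latter. Their summed level on the linear scale, as log2, was 11.70 to 11.82 in S116A and 11.75 to 11.80 in S116D. Among 12 fibroblast and mesothelial markers 1 rose and 1 fell, and among 6 endothelial markers 1 fell. In bulk RNA, fewer cells of a type and less RNA per cell cannot be told apart.

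None of the NF-κB subunit and inhibitor genes passed the test between the lines. Of their 20 probe sets 0 were called at a limma Benjamini-Hochberg adjusted p under 0.05. Of all probe sets 8.55% were called, 4.36% higher and 4.19% lower in S116D. An unadjusted limma p under 0.05 was found for 3 of the 20. The share of all probe sets under that p was not counted, so the 3 show no excess. The 20 differences ran from -0.35 to 0.23, with a median of -0.07 against 0.00 over all probe sets. 17 of the 20 were below zero, against 48.9% of all probe sets. Members share probe targets and arrays, so these 20 values are not independent. The 3 arrays of a line all lay beyond those of the other on 4 of the 20, near the 24.0% of all probe sets, 3 of the 4 lower and 1 higher in S116D. The 95% intervals of the 20 together spanned -0.81 to 0.45. The count of 0 changed with 1 array: without S116A 3, 5 probe sets were called (1 of NFKB1, 1 of NFKB2 and 3 of REL, all lower in S116D), with 8.34% of all probe sets called in that fit. With the 2 sets of arrays as a term, a choice made after seeing the data, NFKB1 (-0.25, limma adjusted p = 0.042) and NFKBIE (0.27, 0.032) were called, where 14.8% of all probe sets were.

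**Figure D1:**
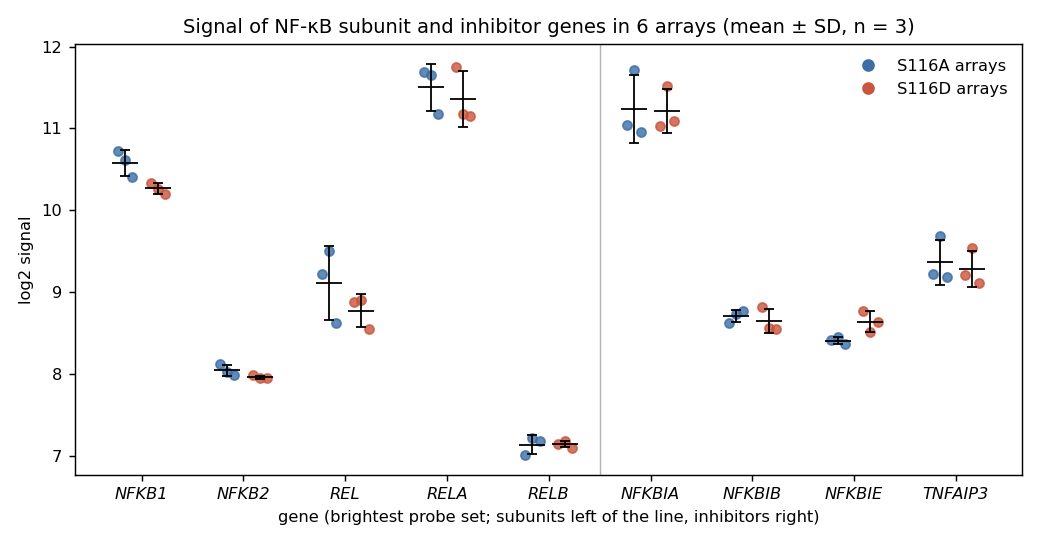
Log2 signal of the brightest probe set of each of the 9 measured genes, subunits left of the vertical line and inhibitors right. Points are single arrays in the order 1 to 3, and bars give the mean and SD of 3 arrays. For NFKB1, NFKB2 and NFKBIE the lines do not overlap, and the NFKBIA and TNFAIP3 points have 1 high array in each line. Heights of different genes cannot be compared.

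**Figure D2:**
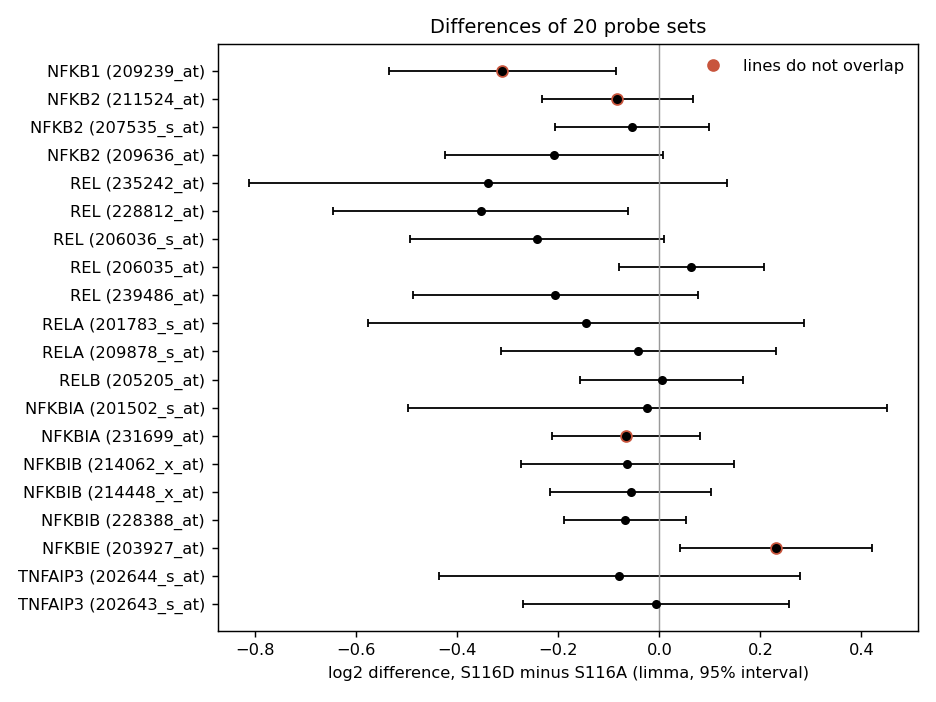
Log2 difference, S116D minus S116A, of the 20 probe sets on the horizontal axis, with the 95% interval of the limma fit. Red rings mark the 4 probe sets whose lines do not overlap. Intervals of NFKB1, of 1 REL probe set and of NFKBIE leave out zero, though none passed after adjustment over all probe sets.

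NFKB1, the gene for p105 and p50, had the smallest adjusted p of the members. Its only probe set read 10.72, 10.61 and 10.40 in S116A 1 to 3 and 10.34, 10.26 and 10.20 in S116D 1 to 3. Every S116D array was below every S116A array, but S116A 3 lay only slightly above S116D 1. The difference was -0.31 ± 0.10 (SE), with a 95% interval from -0.54 to -0.09, a 1.24-fold lower signal in S116D (limma adjusted p = 0.10). Within the 2 sets of arrays, where a line has a single array, it was -0.33 and -0.17. NFKB1 was also called with array weights (-0.36, limma adjusted p = 0.033), where 11.7% of all probe sets were. Over all alternatives its adjusted p ran from 0.030 to 0.31. The 3 genes outside the family whose 6 values followed NFKB1 most closely were FOXA1, TRAFD1 and USP40, with Pearson r from 0.996 to 0.998 over 6 arrays. A step between the lines that these genes share contributes to such an r.

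NFKB2, which encodes p100 and p52, differed little on its brightest probe set. That probe set read 8.12, 8.02 and 7.99 in S116A and 7.98, 7.95 and 7.95 in S116D, so the lines were barely separate. Its difference was -0.08 (95% interval -0.23 to 0.07, limma adjusted p = 0.61), and a second probe set gave -0.05. The dimmest read 7.21, 7.16 and 6.85 in S116A and 6.91, 6.81 and 6.87 in S116D. S116A 3 there fell among the S116D arrays, and the difference of -0.21 had a limma adjusted p of 0.27, against 0.024 without S116A 3.

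REL, the gene for c-Rel, a subunit best known from lymphoid cells, had the most probe sets, and 4 of its 5 were lower in S116D, at -0.21 to -0.35. The brightest read 9.22, 9.50 and 8.62 in S116A and 8.87, 8.90 and 8.55 in S116D. S116A 1 and 2 were the highest arrays and S116A 3 was lower than 2 of the 3 S116D arrays. The difference was -0.34 ± 0.21 (SE), with a 95% interval from -0.81 to 0.13 (limma adjusted p = 0.46). Another bright probe set read 9.08, 9.26 and 8.77 in S116A against 8.72, 8.78 and 8.55 in S116D, a difference of -0.35 ± 0.13 (SE, limma adjusted p = 0.15). Again S116A 3 lay within the S116D range while the other S116A arrays lay above it. Within the 2 sets of arrays the first probe set differed by -0.48 and 0.10 and the second by -0.45 and -0.10. The first value of each rests on S116D 1 alone and the other on S116A 3 alone, the lowest S116A array. Without S116A 3, both were called, at -0.59 and -0.49 (limma adjusted p = 0.038 and 0.027), and without S116A 2 they shrank to -0.14 and -0.24 (0.80 and 0.38). The remaining REL probe set lay between 7.29 and 7.43 in S116A, against 7.39 to 7.47 in S116D, and differed by 0.06 in the other direction.

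RELA, which encodes p65, an activating subunit found in most cell types, followed the 2 sets of arrays and not the lines. Its brighter probe set read 11.69, 11.65 and 11.17 in S116A and 11.75, 11.18 and 11.15 in S116D. The arrays therefore fell into 2 levels, 11.65 to 11.75 in S116A 1, S116A 2 and S116D 1, and 11.15 to 11.18 in the other 3. The second probe set read 9.26 to 9.33 in the first 3 arrays and 8.92 to 9.12 in the others. The 2 sets of arrays did not overlap on 4 of the 20 probe sets, against 18.6% of all probe sets. The 4 were both of RELA, 1 of NFKB2 and 1 of REL. The sets were drawn from these same values, so these shares describe the arrays and test nothing. The GAPDH control was read at its 3′ end over its 5′ end as a sign of RNA integrity (log2 ratio). It was 0.73 to 0.79 in the first set and 0.65 to 0.71 in the second. The sets were barely apart on it, with 0.726 in S116A 1 against 0.708 in S116D 3. The same ratio for the ACTB control overlapped, with 2.33 to 2.44 in the first and 2.27 to 2.47 in the second. The part of RNA integrity in the RELA values was not tested. Between the lines RELA differed by -0.15 (95% interval -0.58 to 0.29) and -0.04 (95% interval -0.31 to 0.23), with limma adjusted p of 0.79 and 0.92. With the sets as a term the differences were 0.04 and 0.05, so no direction can be given.

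RELB, the partner of p52 in the alternative NF-κB pathway, read 7.00, 7.22 and 7.18 in S116A and 7.15, 7.17 and 7.10 in S116D. All S116D values lay inside the S116A range. The difference was 0.00 ± 0.07 (SE), with a 95% interval from -0.16 to 0.17, so a difference of the size seen for NFKB1 lies outside it. This probe set is dim, with 33.9% of probe sets dimmer.

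Among the inhibitors, NFKBIE was the only one with a positive difference on its probe set. IκBε read 8.41, 8.45 and 8.36 in S116A and 8.77, 8.51 and 8.63 in S116D. The lines did not overlap, with S116D 2 nearest to S116A 2. The difference was 0.23 ± 0.08 (SE), a 1.17-fold higher signal in S116D, with a 95% interval from 0.04 to 0.42 (limma adjusted p = 0.15). Within the 2 sets of arrays, where a line has a single array, it was 0.34 and 0.21. NFKBIB, the gene for IκBβ, differed by -0.06 to -0.07 on its 3 probe sets (limma adjusted p from 0.60 to 0.82). Its brightest read 8.62, 8.73 and 8.77 in S116A and 8.81, 8.57 and 8.55 in S116D, with the highest value in S116D 1 and the lowest in S116D 3. That probe set and another of NFKBIB are of a type that can read other transcripts.

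NFKBIA and TNFAIP3 are the feedback inhibitors that NF-κB itself induces. On their brightest probe sets they did not differ between the lines beyond their spread, yet varied together from array to array. NFKBIA read 11.04, 11.71 and 10.96 in S116A 1 to 3 and 11.03, 11.52 and 11.09 in S116D 1 to 3. The second array of each line was the highest, by 0.67 in S116A and 0.43 in S116D. TNFAIP3 read 9.22, 9.68 and 9.19 in S116A and 9.21, 9.53 and 9.11 in S116D, and again the second array of each line was the highest, by 0.46 and 0.33. Its other probe set had the same order, with 8.08, 8.40 and 8.04 in S116A and 8.15, 8.32 and 8.03 in S116D. Over the 6 arrays the brightest probe sets of NFKBIA and TNFAIP3 had a Pearson r of 0.97, the highest of the 36 pairs of members. The second NFKBIA probe set did not share the pattern, at 8.44, 8.41 and 8.48 in S116A and 8.39, 8.38 and 8.36 in S116D. On it the lines did not overlap, with a small difference of -0.07 (limma adjusted p = 0.70). Between the lines the brightest probe sets differed by -0.02 (95% interval -0.50 to 0.45) for NFKBIA and by -0.08 (95% interval -0.44 to 0.28) for TNFAIP3, with limma adjusted p of 0.98 and 0.88.

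**Figure D3:**
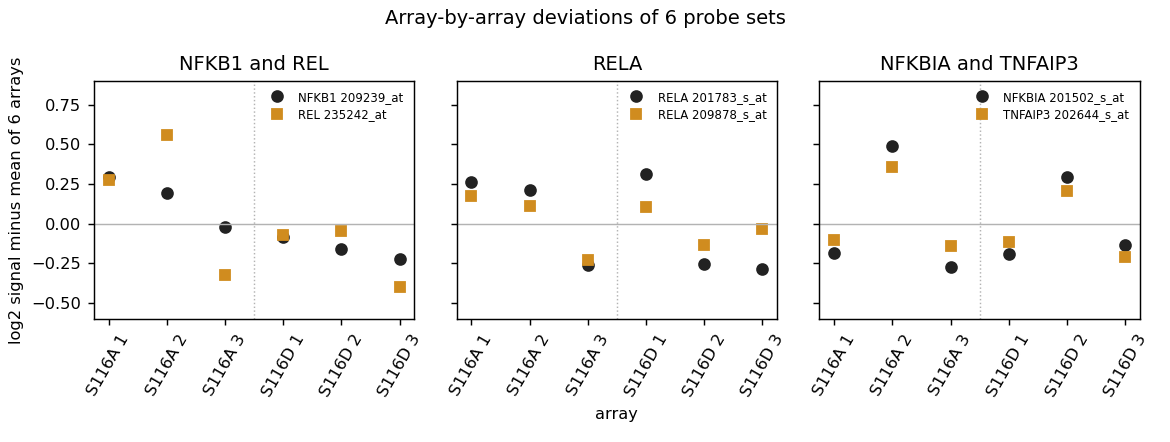
Log2 signal of 6 probe sets minus the mean of its 6 arrays, by array, with S116A left and S116D right of the dotted line. NFKB1 and REL were highest in S116A 1 and 2, RELA in S116A 1, S116A 2 and S116D 1, and NFKBIA and TNFAIP3 in the second array of each line.

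A second array higher than both others by at least 0.3 in both lines, a threshold chosen after the values were seen, was rare. It was met by 15 genes on their brightest probe set (0.0759% of 19775), NFKBIA and TNFAIP3 among them, and by 0.0568% of probe sets. The other 13 were MAFF, CCN2, LINC00472, ATF3, DUSP5, SLC7A11, PDP1, TRIB1, DNAJC22, SLC5A3, AKR1C1, CXCL8 and PHLDA1. ATF3, MAFF, DUSP5 and CCN2 are known as rapidly induced genes, and CXCL8, interleukin-8, is a well-known NF-κB target. CXCL8 read 8.03, 8.95 and 8.26 in S116A and 7.49, 8.63 and 8.33 in S116D. This CXCL8 probe set is of the type, as for NFKBIB, that can read other transcripts. The other CXCL8 probe set did not meet the threshold. Of 39 measured NF-κB target genes 8 had their highest value in the second array of both lines, by any margin (CXCL1, CXCL2, CXCL8, CCL2, CCL5, IL6, XIAP and IRF1), where 8.37% of all genes did. By at least 0.3 in both lines only 1 of the 39 did, CXCL8. For CCL2, CCL5 and IL6 the gap in S116A was at most 0.018. Of the 20 member probe sets 7 had that order by any margin, against 9.66% of all probe sets, 3 of REL, 1 of RELB, 1 of NFKBIA and both of TNFAIP3. NFKB1, NFKB2 and RELA had it on none of theirs. The labels do not say what arrays of the same number have in common, and a shared handling was not tested.

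Other genes of the pathway did pass the test, on 5 lists chosen with earlier results of these data known. A gene was read on its brightest probe set, on which 11.0% of all genes were called, 6.13% higher and 4.82% lower in S116D. The median difference of all genes was 0.01. A fit of the probe sets above the median signal alone called 16.2% of them. Above that median lay 16 receptors and ligands, 23 adaptors and kinases, 18 ubiquitin regulators, 19 IκB-like proteins and cofactors and 23 target genes. Among 26 measured receptors and ligands 4 were higher and 3 lower, with a median of 0.05. Among 28 adaptors and kinases 4 were higher and 1 lower (median 0.06), among 19 ubiquitin regulators 2 higher and 1 lower (-0.02), among 20 other IκB-like proteins and nuclear cofactors 3 higher and 2 lower (-0.11), and among 39 target genes 4 higher and 3 lower (0.03).

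**Figure D4:**
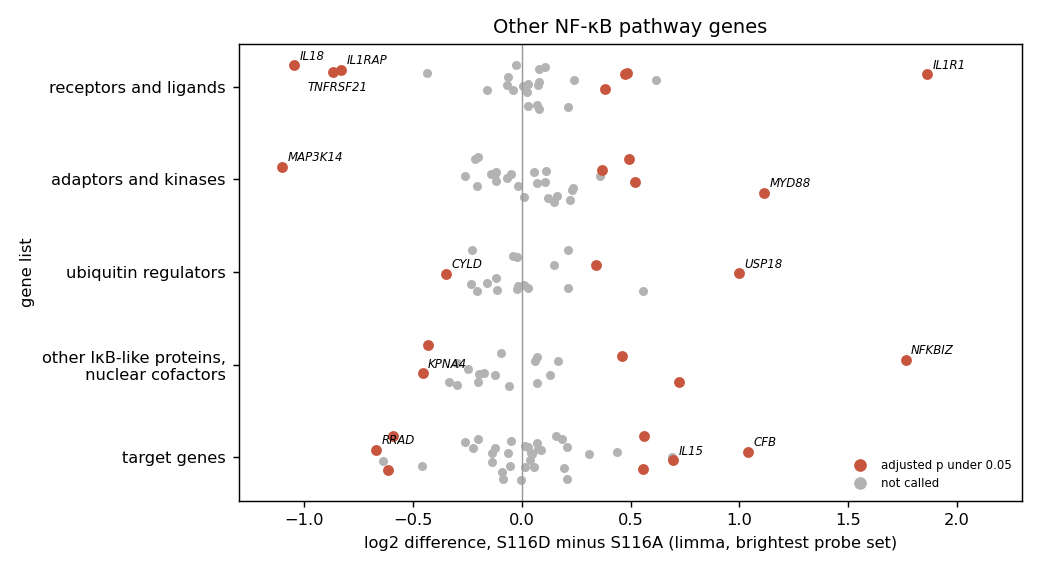
Log2 difference, S116D minus S116A, of each measured gene of 5 pathway lists on the horizontal axis, by list, with vertical scatter for legibility alone. Red points passed a limma adjusted p under 0.05. IL1R1 and NFKBIZ lie farthest right and MAP3K14 and IL18 farthest left.

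The receptor components of interleukin-1 changed in opposite directions. IL1R1, the signalling receptor, read 9.46, 9.94 and 8.98 in S116A and 11.55, 11.17 and 11.24 in S116D. Every S116D array lay over 1 log2 unit above every S116A array, and the rise was 1.86 ± 0.22 (SE), or 3.63-fold (limma adjusted p = 0.0015). IL1RAP, its accessory chain, fell 1.77-fold, from 9.93 ± 0.10 to 9.10 ± 0.18 (SD, n = 3 each, limma adjusted p = 0.0026). The second IL1R1 probe set, a dim one, rose by only 0.35, or 1.27-fold (limma adjusted p = 0.013), and the second of IL1RAP differed by -0.67 (0.0038). TNFRSF21, a death receptor of the TNF receptor family, fell 1.83-fold and IL18R1, an interleukin-18 receptor chain, rose 1.40-fold from a dim signal. The Toll-like receptor genes TLR2 (0.38) and TLR3 (0.48) rose and the cytokine gene IL18 fell (-1.05), all 3 named after their values were seen. The TLR3 probe set is dim, with 16.9% of probe sets dimmer. The inducers TNF (-0.07, limma adjusted p = 0.77) and IL1B (-0.16, 0.37), also named afterwards, did not pass. IL1A, another ligand of this list, did not pass on its brightest probe set (0.08, limma adjusted p = 0.78), but 1 of its 2 probe sets was called.

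Downstream of the receptors, MYD88, the adaptor for interleukin-1 and Toll-like receptors, read 9.21, 9.26 and 9.08 in S116A and 10.43, 10.31 and 10.15 in S116D. The lines were far apart, and the rise was 2.16-fold (1.11 ± 0.10, SE, limma adjusted p = 3.5e-04). MAP3K14, the NF-κB-inducing kinase of the alternative pathway, read 10.10, 10.25 and 9.65 in S116A and 9.03, 8.70 and 8.96 in S116D. It fell 2.14-fold (-1.10 ± 0.16, SE, limma adjusted p = 0.0038), with S116A 3 again the lowest S116A array. RIPK2, a kinase downstream of NOD receptors, rose 1.41-fold on its brighter probe set and was called on both. TRAF5 rose 1.29-fold and was called on 1 of its 2 probe sets. TRAF3, which promotes degradation of the MAP3K14 protein and is named after its value was seen, rose 1.43-fold. The IκB kinase genes CHUK (0.16), IKBKB (-0.22) and IKBKG (-0.07), also named afterwards, had limma adjusted p of 0.58, 0.41 and 0.77.

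NFKBIZ, which encodes the nuclear inhibitor-like protein IκBζ, had the largest difference among the genes related to the IκB family. It read 8.69, 9.35 and 9.05 in S116A and 10.83, 10.62 and 10.94 in S116D. All S116D arrays were over 1 log2 unit higher, a 3.39-fold rise (1.76 ± 0.16, SE, limma adjusted p = 4.9e-04), and a second probe set rose by 0.73 (limma adjusted p = 0.0063). One of its promoters holds the same κB-type letters as NFKB1, 223 bases before the start, and is shown for comparison with the members.
NFKBIZ (chr3:101827742-101827801, plus strand): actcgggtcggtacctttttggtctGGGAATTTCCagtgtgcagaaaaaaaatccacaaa
NFKBID, another nuclear IκB gene, differed by -0.10 (limma adjusted p = 0.68) and was named after its value was seen. NKIRAS1, a Ras-like protein that binds IκBs, rose 1.65-fold and the acetyltransferase gene KAT5 rose 1.38-fold. Every KAT5 probe set is of the type, as for NFKBIB, that can read other transcripts. The importin genes KPNA4 and KPNA3, whose products carry cargo into the nucleus, fell 1.37-fold and 1.35-fold, KPNA3 being named afterwards. Among ubiquitin regulators USP18, which removes ISG15 from proteins, rose 1.99-fold and TAX1BP1, a partner of A20, rose 1.27-fold on 1 of its 3 probe sets. CYLD, a deubiquitinase that restrains NF-κB, fell 1.27-fold and was called on 2 of its 7.

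Target genes of NF-κB moved in both directions. IL15 rose from 8.99 ± 0.07 to 9.68 ± 0.10 (SD, n = 3 each), 1.62-fold (limma adjusted p = 0.0018). The complement gene CFB rose 2.06-fold on 1 of its 2 probe sets and was named after its value was seen, like C3 and LIF. IL6 (0.56) and C3 (0.56) also rose. The chemokine gene CCL20 fell 1.51-fold, RRAD, a Ras-related GTPase gene, 1.59-fold and LIF 1.53-fold. RRAD was called on 2 of its 3 probe sets, and LIF barely passed (limma adjusted p = 0.0495). The probe sets of IL6 and CCL20 are dim, with 31.2% and 35.0% of probe sets dimmer. CXCL8 (-0.26, limma adjusted p = 0.77) and ICAM1 (0.16, 0.33), named afterwards as widely used targets, did not pass. Promoters with a match to the κB-type letters were found in 41.9% of 31 target genes, 13.6% of 22 receptors and ligands, 17.2% of 29 adaptors and kinases, 15% of 20 ubiquitin regulators and 5.56% of 18 IκB-like proteins and cofactors, against 4.71% of all genes. The letters had been chosen on the members, and no test was made. Of the called genes of the 5 pathway lists, several lost their call in a fit of 5 arrays (limma adjusted p from 0.050 to 0.15). Leaving out S116A 1 ended the calls of TRAF5, TRAF3, TAX1BP1, CYLD, KAT5, KPNA3, RRAD, IL6, C3 and CFB, and leaving out S116A 2 those of TRAF5, TRAF3, TAX1BP1, CYLD, KPNA3, IL6, C3, CFB, LIF and TLR2. Without S116A 3 the calls of TRAF3, C3, CFB and LIF ended, and without S116D 1 those of TRAF3, CYLD and LIF. Without S116D 2 those of TRAF5, TRAF3, CYLD, KAT5, KPNA3, RRAD, C3, CFB and LIF ended, and without S116D 3 those of TAX1BP1, CYLD, KPNA3, RRAD, C3, LIF and TLR2. The other called genes of these lists, among them IL1R1, IL1RAP, MYD88, MAP3K14 and NFKBIZ, kept their call in each of these 6 fits.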

How the data were processed

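Per the labels, RNA of 6 samples was read on 1 Affymetrix HG-U133 Plus array each. The table deposited by the authors holds 1 value per probe set and array, taken as log2 signal because values lie between 4.34 and 15.33. MAS5 and RMA appear in the submitters' processing notes, with no role or version. There are no detection calls, and 3 arrays per line limit the precision. Of 54675 probe sets, 62 controls were left out. GEO's platform annotation, with symbols through RefSeq (GRCh38.p14), gave 1 gene for 41091, several for 1801 and none for 11721; 41037 of the 41091 matched RefSeq.

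The comparison used lmFit and eBayes with trend from limma 3.58.1 (R 4.3.3), without covariates, adjusted over all 54613 probe sets at 0.05. SEs are limma's, and folds are 2 to the power of the difference. An exact permutation test of 3 against 3 cannot go below p = 0.1. The fit was tested on simulated data. The members and lists were chosen with earlier results of these data known. Named were each member's brightest probe set, up to 4 called genes of a list with the smallest adjusted p, and the 3 genes most like the top member. Alternatives were array weights, the replicate block, 1 probe set per gene, quantile normalization or median centring of the arrays, leaving out dim probe sets, eBayes with no trend, leaving out each array, and, added after seeing the data, the 2 array sets as a block.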

Additional observations from a re-analysis of the deposited data

How the results depend on the processing

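The count of 0 called member probe sets (0 genes) held under quantile normalization, median centring, the dim filter (14 of the 20 fitted), eBayes without trend and 1 probe set per gene. It was 1 with array weights (1 gene), where 11.7% of all probe sets were called. With the replicate block it was 2 (2 genes, NFKB1 at limma adjusted p = 0.030 and REL at 0.023), where 13.4% of all were. When both array sets entered as a term it was 2 (2 genes), where 14.8% of all were. Leaving out 1 array each, it was 0 to 5 (0 to 3 genes), where 4.78% to 8.56% of all were. All probe sets called numbered 4672, against 7340 with the replicate block, 8099 with the 2 sets as a block, 2407 with 1 probe set per gene, where fewer are tested, and 2608 to 4674 leaving out 1 array. Whether replicate numbers pair the lines is not settled: same-numbered arrays deviated from their line means with r of 0.45, -0.04 and 0.44, against -0.55 to 0.31 for other numbers, so not every pair was above 0.1 and the block was kept as an alternative.

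Called adaptors and kinases numbered 5, against 8 with array weights, 8 with the replicate block and 9 with the 2 sets as a block. Called target genes numbered 7, against 11 with the replicate block. In each of these alternative fits more of all probe sets were called than the 8.55% of the main fit. LIF lost its call with eBayes without trend. Leaving out 1 array gave 6 to 8 receptors and ligands, 3 to 5 adaptors and kinases, 1 to 4 ubiquitin regulators, 3 to 5 IκB-like proteins and cofactors and 3 to 7 target genes. Differences near zero changed sign without a call: RELB (-0.0031 with quantile normalization, -0.0079 with median centring, -0.0049 with the sets as a block), NFKBIA (0.0097 and 0.0016 with quantile normalization and the sets), RELA (0.035 and 0.051 with the sets) and TNFAIP3 (0.022 with the sets). Leaving out 1 array, differences ran from -0.18 to 0.21 for NFKBIA, -0.17 to 0.036 for the dimmer RELA probe set, -0.060 to 0.046 for RELB, and -0.20 to 0.080 and -0.085 to 0.11 for the brighter and dimmer probe sets of TNFAIP3, -0.11 to 0.0060 for TNF and -0.50 to 0.068 for CXCL8. The cause of these changes was not tested.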
